A study of Mus musculus with 6 samples.

Results

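The genes described here encode enzymes that add or remove chemical marks on histones and DNA, together with relatives of those enzymes that share their names. They were chosen by name alone, as the protein-coding genes of the deposited table whose symbol starts with Kdm, Kmt, Setd, Hdac, Sirt, Tet, Ezh or Prdm followed by a digit, which gave 71 of 54838 genes. They comprise 18 Kdm, 14 Prdm, 11 Hdac, 8 Kmt, 8 Setd, 7 Sirt, 3 Tet and 2 Ezh genes. RNA was sequenced from mouse melanoma cells of the line B16F10, in 3 control libraries and in 3 libraries of cells given fenofibrate at 50 µM, a fibrate that lowers blood lipids and acts through the nuclear receptor PPARα. The labels call the libraries biological triplicates and give neither the duration of treatment nor what the control cells received. In the labels the cell line name differs in its final number for each of the 6 libraries, and if that is meant as written, line and treatment cannot be told apart. Nothing further says how the replicates were grown, so p-values measure the spread between these libraries only.

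Many proteins of the KMT2, SETD and EZH kinds, though not all, are lysine methyltransferases with a catalytic SET domain that write methyl marks on histone tails. Methylation of H3K4 is found at active promoters and enhancers, H3K27 methylation by EZH1 and EZH2 in Polycomb repressive complex PRC2 keeps developmental genes silent, and H4K20 methylation is tied to chromosome compaction and replication. KDM enzymes remove methyl groups, either with flavin (KDM1) or with iron and 2-oxoglutarate through a JmjC domain. HDAC enzymes remove acetyl groups with a zinc ion, while sirtuins do so with NAD+. TET enzymes oxidise methylated cytosine in DNA, and PRDM proteins are zinc-finger factors with a domain related to SET, most of which act through recruited enzymes.

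The libraries held 13540038 to 14710856 counts, so that a count of 0 in a library allows up to 0.204 to 0.222 CPM (3 counts of the total, for counting error only). Levels are given as normalised CPM, counts relative to the scaled library total, and as FPKM, which also divides by gene length, where genes are compared with each other. All 7 melanocyte lineage markers were counted in every library, with summed levels of 20917 to 22127 normalised CPM in control and 26493 to 28170.3 with fenofibrate, and 5 of them were called higher. Markers of other cells were low but moved with treatment. In summed normalised CPM, the 6 fibroblast markers held 14.6 to 17.6 in control and 7.86 to 9.58 with fenofibrate, with Pdgfrb called lower. The 6 endothelial markers summed to 3.17 to 3.41 in control and 8.64 to 11.3 with fenofibrate, with Vwf called higher and Cdh5, Kdr, Tek and Erg at 0. The 6 macrophage markers summed to 1.89 to 3.28 in control and 3.90 to 6.72 with fenofibrate, with Cd68 called higher and Adgre1 and Itgam at 0, and the keratinocyte markers to at most 0.139. Their part in the results was not tested. In RNA of whole cultures, fewer cells with a transcript and less of it per cell cannot be told apart.

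More of these genes were lower than higher with fenofibrate. Of the 71 genes, 62 passed the filter on low counts and were tested with edgeR's quasi-likelihood test, and 34 of the 62 (54.8%) were called at an adjusted p of 0.05, against 39.1% of all 13629 genes tested. The 24 called lower were 38.7% of the tested members, where 19.5% of all genes were called lower. The 10 called higher were 16.1%, where 19.5% of all genes were called higher. Differences are given as log2 ratios of fenofibrate to control. The median log2 ratio of the tested members was -0.17, beside 0.00 for all genes tested. A change of 1.5-fold or more was called downward in 12 of the 62 tested members and upward in 3 of the 62. Over all 13629 genes it was called downward in 928 (6.81%) and upward in 979 (7.18%). The control and fenofibrate values did not overlap for 37 of the 62 members (59.7%), against 53.3% of all genes. The split of 10 higher and 24 lower was 10 and 23 with RLE factors, 10 and 25 with upper-quartile factors, and 6 and 28 with library totals alone. With limma on deposited FPKM, which also changes the test and the filter (60 members tested), it was 5 and 23.

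By family, 4 of the 16 tested Kdm genes fell and 2 rose, 5 of 8 Kmt genes fell and 2 rose, and 3 of 8 Setd genes fell with 0 higher. Of the tested Hdac genes, 4 of 10 fell and 1 rose, while among the 7 sirtuins 1 fell and 2 rose. All 3 Tet genes were called, 2 lower and 1 higher. Of the Ezh genes 1 of 2 fell, and of the 8 tested Prdm genes 4 fell and 2 rose. Over all genes tested 39.1% were called, 19.5% each way. The shares called of the Kdm (37.5%), Setd (37.5%) and Sirt (42.9%) genes lie near that share. The largest called changes were a 2.73-fold fall of Prdm16 and a 2.19-fold rise of Sirt1.

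**Figure D1:**
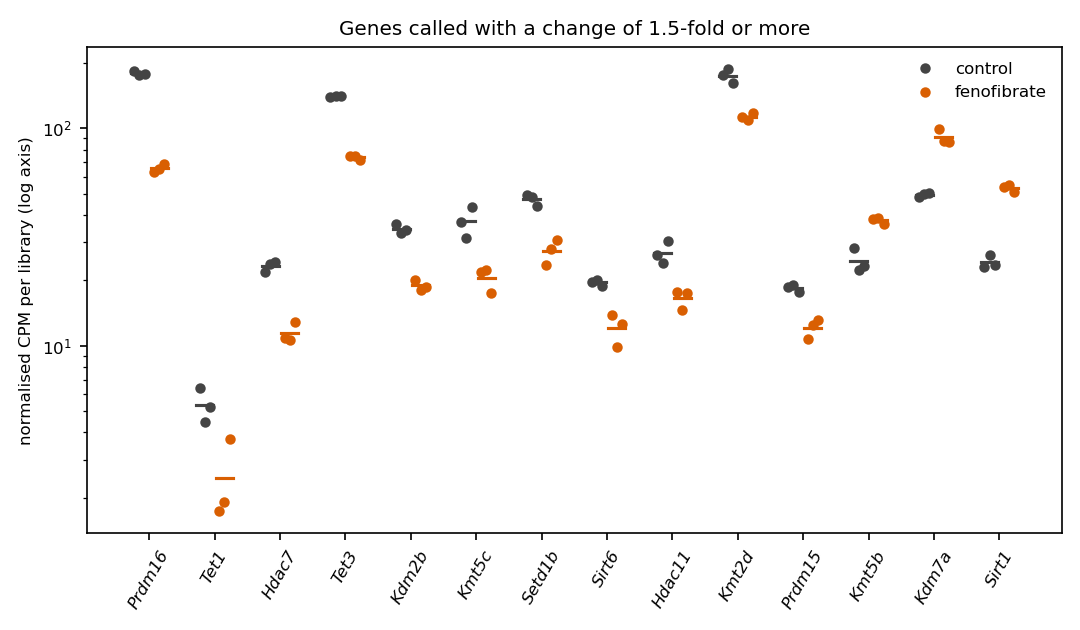
Normalised CPM of each library (log axis) for genes called with a change of 1.5-fold or more, ordered from the largest fall to the largest rise, with a short line at each group's mean (n = 3 libraries each). Control and fenofibrate points do not overlap for any gene drawn, and Kmt5b, Kdm7a and Sirt1 are those that lie higher with fenofibrate.

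Most genes of the COMPASS-type enzymes that methylate H3K4 fell. Counted here are 7 tested genes, Kmt2a to Kmt2d, Setd1a, Setd1b and the meiotic enzyme gene Prdm9. Kmt2a, Kmt2b, Kmt2d, Setd1a and Setd1b were called lower and 0 of the 7 higher, while Kmt2c and Prdm9 were not called. Over all genes tested 19.5% were called lower and 19.5% higher. Kmt2e, a KMT2 gene by name that is described with the other SET proteins, was called higher (log2 ratio 0.22, adjusted p = 0.0205). Setd7, which can also methylate H3K4 but acts on many other proteins, is described with the other SET proteins and was not called (log2 ratio 0.13). The summed FPKM of the 7 genes was 38.1 to 41.9 in control and 29.7 to 30.2 with fenofibrate. The largest of these falls was in Setd1b, the catalytic subunit of a COMPASS complex that trimethylates H3K4 at promoters, with 49.6, 48.6 and 43.9 normalised CPM in the control libraries and 23.6, 27.8 and 30.6 with fenofibrate. All 3 fenofibrate libraries lay below every control library, and the gene was 1.73-fold lower (log2 ratio -0.79 ± 0.10 SE, adjusted p = 0.000937). Its paralog Setd1a was present at a higher level per length, 13.4 FPKM in control and 11.2 with fenofibrate against 2.92 and 1.62 FPKM for Setd1b, and was lower by a smaller factor (1.15-fold lower, log2 ratio -0.20 ± 0.04 SE, adjusted p = 0.0102).

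Kmt2d, which methylates H3K4 at enhancers, had 175, 187 and 161 normalised CPM in the control libraries and 113, 109 and 118 with fenofibrate. The groups were again apart, and the gene was 1.54-fold lower (log2 ratio -0.62 ± 0.06 SE, adjusted p = 0.000293). Kmt2c, its enhancer partner enzyme, had 90.1, 89.0 and 75.0 normalised CPM in the control libraries and 68.5, 69.7 and 77.4 with fenofibrate, and its groups overlapped (95% interval -0.44 to -0.04, adjusted p = 0.0626). Kmt2c was called lower without control replicate 3 (adjusted p = 0.0166) or without fenofibrate replicate 3 (adjusted p = 0.0473). It was also called lower with upper-quartile factors and with library totals alone as scaling.

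Kmt2a and Kmt2b encode the MLL enzymes that work with the tumour suppressor menin. Kmt2a had 143, 116 and 114 normalised CPM in the control libraries and 99.1, 98.7 and 84.0 with fenofibrate, and was 1.32-fold lower (log2 ratio -0.40 ± 0.11 SE, adjusted p = 0.0186). That call was lost without fenofibrate replicate 3, the lowest of the 6 (adjusted p = 0.0526). Kmt2b was 1.35-fold lower (log2 ratio -0.44 ± 0.06 SE, adjusted p = 0.00172), with its groups apart. Prdm9, the meiotic H3K4 methyltransferase that places recombination sites, was counted 33 to 49 times a library, with a log2 ratio of 0.12 ± 0.20 SE (95% interval -0.35 to 0.59, adjusted p = 0.667).

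Among the enzymes that remove H3K4 methylation, the flavin enzyme gene Kdm1a (LSD1) fell and Kdm5a rose slightly. Kdm1a had 86.5, 79.1 and 81.8 normalised CPM in the control libraries and 66.5, 65.3 and 54.9 with fenofibrate, which is 1.33-fold lower with the groups apart (log2 ratio -0.41 ± 0.08 SE, adjusted p = 0.00679). Its paralog Kdm1b had a log2 ratio of -0.25 ± 0.11 (95% interval -0.50 to -0.0029, adjusted p = 0.10), with overlapping groups. Kdm5a, a JmjC demethylase that binds the retinoblastoma protein, had the highest mean FPKM of the Kdm genes over all 6 libraries, although Kdm1a stood slightly above it in control (10.7 against 10.7 FPKM). Kdm5a had 191, 198 and 181 normalised CPM in the control libraries and 212, 207 and 214 with fenofibrate, and was 1.11-fold higher (log2 ratio 0.15 ± 0.04 SE, adjusted p = 0.0307). The Kdm5a call was lost without control replicate 1 (adjusted p = 0.0789), control replicate 3 (0.084), fenofibrate replicate 1 (0.076) or fenofibrate replicate 3 (0.074). Kdm5b, which marks a slow-cycling state in melanoma, and the X-linked Kdm5c had log2 ratios of 0.04 and -0.03, with 95% intervals from -0.21 to 0.28 and from -0.20 to 0.14.

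The Y-linked Kdm5d was at 0 counts in the 3 control libraries and at 4, 2 and 1 counts with fenofibrate, below the filter for testing. The leukocyte gene Ptprc showed the same order, with a sum of 0 counts in control and 24 with fenofibrate, and the 6 T cell markers summed to 0 normalised CPM in every control library and to 0.278 to 0.637 with fenofibrate, with Cd3e and Cd8a at 0 throughout. The Y-linked Uty, a relative of Kdm6a, had 1 count in control and 0 with fenofibrate. The part of other cells in the Kdm5d counts was not tested.

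Among the genes of PRC2 enzymes and of the KDM6 demethylases of H3K27, no called change reached 1.5-fold. Ezh2, the main catalytic subunit of PRC2 in dividing cells and a recurrent gain-of-function gene in melanoma, had 188, 180.1 and 188 normalised CPM in the control libraries and 156, 165 and 159 with fenofibrate. The groups did not overlap, and the gene was 1.16-fold lower (log2 ratio -0.21 ± 0.04 SE, adjusted p = 0.00585). Its paralog Ezh1 had a log2 ratio of -0.0045 (95% interval -0.16 to 0.15, adjusted p = 0.967). Ezh2 held 84.4, 82.3 and 83.6% in the control libraries and 81.1, 81.0 and 82.0% with fenofibrate of the summed FPKM of the pair.

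Of the demethylases for this mark, the X-linked Kdm6a (UTX) was 1.27-fold lower (log2 ratio -0.35 ± 0.11 SE, adjusted p = 0.0452), although 1 control and 1 fenofibrate library met, at 45.5 and 45.8 normalised CPM. The Kdm6a call was lost without control replicate 1 (adjusted p = 0.121), control replicate 2 (0.134), fenofibrate replicate 1 (0.0935) or fenofibrate replicate 3 (0.120). Kdm6b (JMJD3), which is induced by stress and inflammatory signals in many cells, had a log2 ratio of 0.18 ± 0.07 (95% interval 0.01 to 0.35, adjusted p = 0.0897).

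In the group of JmjC demethylases that act on H3K9, H3K27 or H3K36, Kdm7a rose while Kdm2b and Kdm3b fell. Kdm7a, a PHD-finger demethylase of H3K9 and H3K27, had 48.6, 49.9 and 50.6 normalised CPM in the control libraries and 99.4, 87.4 and 86.9 with fenofibrate. Every fenofibrate library exceeded every control library, by 1.84-fold on average (log2 ratio 0.88 ± 0.07 SE, adjusted p = 9.17e-05). The gene lies on GRCm38 chromosome 6, 39136623 to 39206789, on the minus strand.

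Kdm2b, which brings a variant Polycomb complex to unmethylated CpG islands, had 36.2, 33.1 and 34.1 normalised CPM in the control libraries and 20.2, 18.1 and 18.6 with fenofibrate. The gene was 1.82-fold lower with the groups apart (log2 ratio -0.86 ± 0.08 SE, adjusted p = 0.00018). Kdm3b, an H3K9 demethylase, was 1.28-fold lower (log2 ratio -0.36 ± 0.07 SE, adjusted p = 0.0051). Kdm3a, its paralog and a gene induced by hypoxia in many cells, had 116, 143 and 108 normalised CPM in the control libraries and 141, 134 and 154 with fenofibrate, with overlapping groups (95% interval -0.02 to 0.47, adjusted p = 0.134). Kdm3a was called higher without control replicate 2 (adjusted p = 0.0147).

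The paralog Kdm2a could not be measured with the same precision. It had 2194, 1086 and 1035 counts in control and 1997, 993 and 1101 with fenofibrate, so the library numbered 1 of each group held about the sum of the other two libraries of that group. Its log2 ratio was -0.05 ± 0.37 SE and its interval ran from -0.93 to 0.82 (adjusted p = 0.923). Without both libraries numbered 1, a choice made after these counts were seen, it was -0.04 (adjusted p = 0.723). No exon of another annotated gene overlaps those of Kdm2a. Of the 62 tested genes, Kdm2a had the widest ratio of highest to lowest library in control, at 2.11-fold, and with fenofibrate only Tet1 (2.16-fold) exceeded its 2.14-fold.

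**Figure D2:**
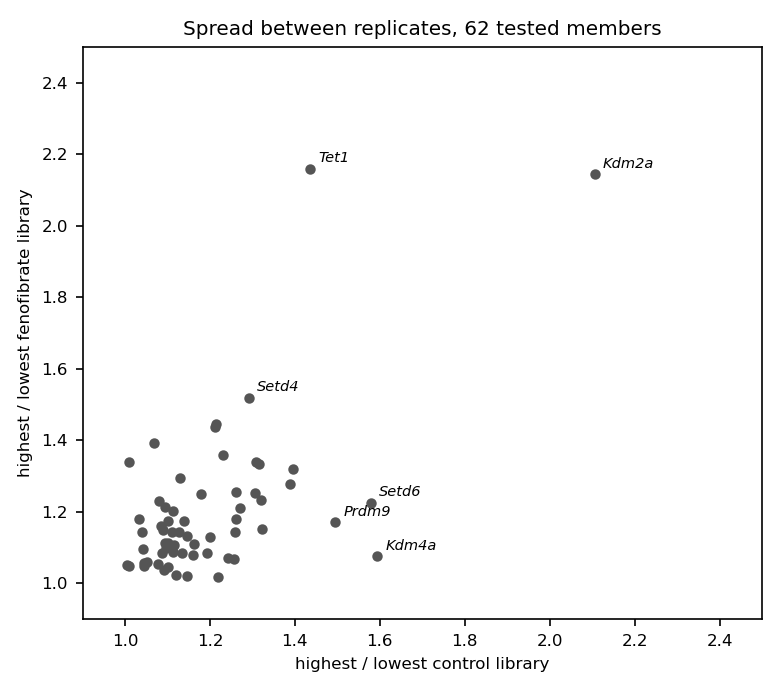
Ratio of the highest to the lowest normalised CPM among the 3 control libraries (horizontal) and the 3 fenofibrate libraries (vertical), 1 point per tested member. Most genes lie in the lower left corner, Kdm2a stands at 2.11 and 2.14, and Tet1 spreads 2.16-fold among the fenofibrate libraries.

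The KDM4 enzymes, which remove H3K9 and H3K36 trimethylation, were not called. Kdm4a had 89.5, 63.6 and 56.1 normalised CPM in the control libraries and 53.5, 52.6 and 56.5 with fenofibrate, where control replicate 1 stood above the rest (95% interval -0.73 to 0.0046, adjusted p = 0.107). Kdm4a was called lower without control replicate 3 (adjusted p = 0.0343). Kdm4b had a log2 ratio of 0.26 ± 0.11 (adjusted p = 0.104), and was called higher without fenofibrate replicate 2 (adjusted p = 0.0141). Kdm4c had 0.09 ± 0.06 (95% interval -0.04 to 0.22), and Kdm4d had 2 counts in control and 0 with fenofibrate. Setd2, the enzyme that trimethylates H3K36 behind RNA polymerase II, had a log2 ratio of 0.03 ± 0.06 (95% interval -0.10 to 0.17, adjusted p = 0.682).

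**Figure D3:**
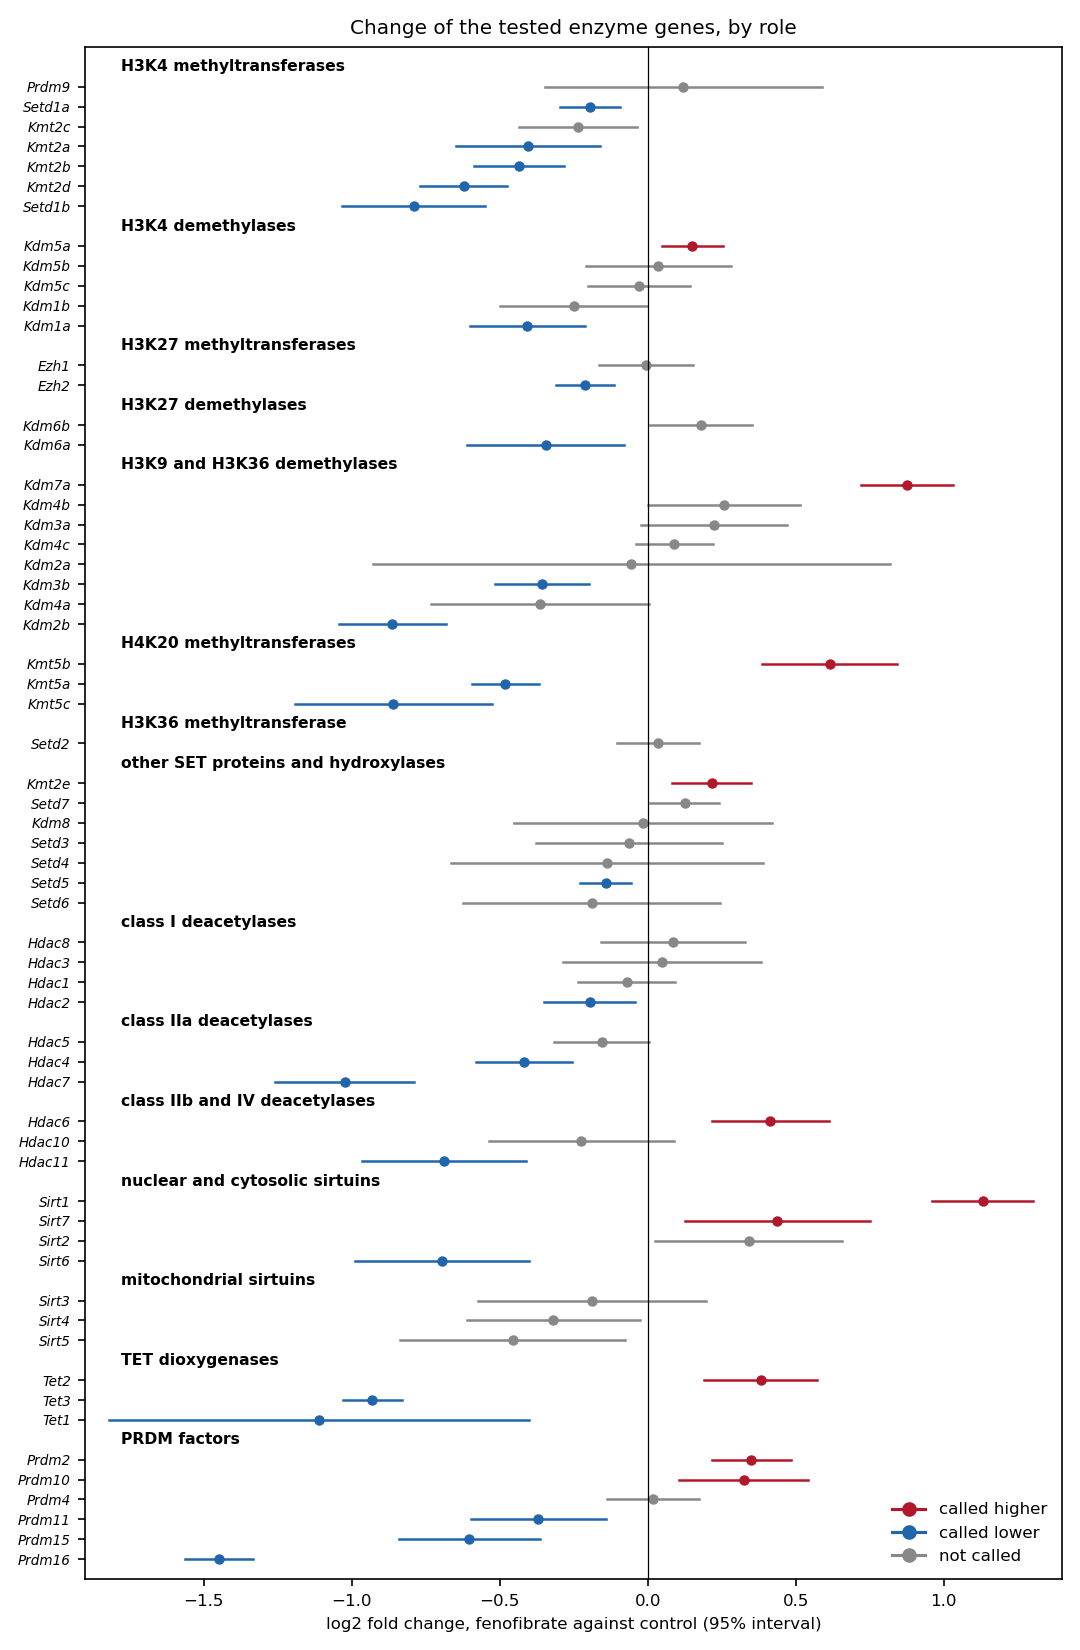
Log2 fold change with its 95% interval (horizontal) for the tested members that are named here, grouped by role and coloured by the edgeR call at an adjusted p of 0.05. Points left of 0 are lower with fenofibrate and points right of 0 are higher, with Prdm16 at one end (-1.45) and Sirt1 at the other (1.13).

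The H4K20 enzymes went in opposite directions. Kmt5a, the sole enzyme for monomethylation and a cell-cycle regulated gene, had 211, 225 and 237 normalised CPM in the control libraries and 163, 159 and 159 with fenofibrate, and was 1.4-fold lower (log2 ratio -0.48 ± 0.05 SE, adjusted p = 0.000309). Kmt5c, which adds further methyl groups at heterochromatin, had 37.2, 31.4 and 43.6 normalised CPM in the control libraries and 21.8, 22.5 and 17.6 with fenofibrate, and was 1.81-fold lower (log2 ratio -0.86 ± 0.14 SE, adjusted p = 0.00275). Kmt5b, which makes most of the dimethyl mark, had 28.2, 22.5 and 23.2 normalised CPM in the control libraries and 38.4, 38.7 and 36.2 with fenofibrate, and was 1.53-fold higher (log2 ratio 0.62 ± 0.10 SE, adjusted p = 0.00232). In each of the 3 genes the control and fenofibrate libraries were apart. Per length Kmt5a was the most abundant, at 23.1 FPKM in control and 16.0 with fenofibrate. Kmt5b made up 3.71, 2.91 and 2.73% in the control libraries and 6.61, 6.76 and 6.56% with fenofibrate of the summed FPKM of the 3 genes, and Kmt5c 17.6, 14.6 and 18.4% in the control libraries and 13.5, 14.1 and 11.4% with fenofibrate.

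Of the remaining 7 genes, of SET proteins and a JmjC hydroxylase, 1 was called lower, 1 higher and 5 were not called. Over all genes tested 39.1% were called. Setd5, a chromatin protein with a SET domain of disputed activity, was 1.10-fold lower (log2 ratio -0.14 ± 0.04 SE, adjusted p = 0.0197). That call was lost without control replicate 1 (adjusted p = 0.0514), control replicate 2 (0.0696), fenofibrate replicate 1 (0.0612) or fenofibrate replicate 2 (0.0546). Kmt2e (MLL5), which binds H3K4 methylation, was 1.16-fold higher (log2 ratio 0.22 ± 0.06 SE, adjusted p = 0.0205), and its call was lost without control replicate 2 (adjusted p = 0.0517), fenofibrate replicate 1 (0.0551) or fenofibrate replicate 2 (0.0531). Setd3, the actin histidine methyltransferase, had the highest mean FPKM of the Setd genes over all 6 libraries, although Setd7 stood above it with fenofibrate (15.4 against 14.9 FPKM). Setd3 had 171, 167 and 130.1 normalised CPM in the control libraries and 124, 159.9 and 165 with fenofibrate, and its groups overlapped (95% interval -0.38 to 0.25). Setd7, which methylates H3K4 and many other proteins, had a log2 ratio of 0.13 ± 0.05 (adjusted p = 0.0846). Setd6, whose product methylates the NF-kB subunit RelA, had -0.19 (95% interval -0.62 to 0.24), Setd4 -0.14 (95% interval -0.66 to 0.39) and the JmjC hydroxylase gene Kdm8 -0.02 (95% interval -0.45 to 0.42).

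Of the class I deacetylases, which form the catalytic core of the large corepressor complexes, 1 of 4 was called, where 39.1% of all genes tested were called. Hdac2 was the most abundant deacetylase gene per length, at 48.1 FPKM in control and 40.4 with fenofibrate. It had 282, 256 and 269.8 normalised CPM in the control libraries and 241, 214 and 250.5 with fenofibrate, and was 1.15-fold lower at the edge of the threshold (log2 ratio -0.20 ± 0.07 SE, adjusted p = 0.0493). The call was kept only in the fit without fenofibrate replicate 3 among those leaving out 1 library. Without control replicates 1, 2 and 3 in turn its adjusted p was 0.145, 0.0526 and 0.104, without fenofibrate replicate 1 0.0834 and without fenofibrate replicate 2 0.109. Its paralog Hdac1 had 60.1, 65.2 and 63.0 normalised CPM in the control libraries and 59.2, 55.6 and 64.4 with fenofibrate, with overlapping groups (95% interval -0.23 to 0.09, adjusted p = 0.454). Hdac3, the enzyme of the NCoR complexes, and the X-linked Hdac8, which acts on cohesin, had log2 ratios of 0.05 ± 0.14 and 0.09 ± 0.10.

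The class IIa genes, whose products shuttle between nucleus and cytoplasm and restrain MEF2 factors, were lower in 2 of 3 tested cases. Over all genes tested 19.5% were called lower. Hdac7 had 21.9, 23.8 and 24.4 normalised CPM in the control libraries and 10.9, 10.7 and 12.8 with fenofibrate, and was 2.03-fold lower with the groups apart (log2 ratio -1.02 ± 0.10 SE, adjusted p = 0.000269). Hdac4 was 1.34-fold lower (log2 ratio -0.42 ± 0.07 SE, adjusted p = 0.00285). Hdac5 had a log2 ratio of -0.16 ± 0.07 (95% interval -0.32 to 0.0041, adjusted p = 0.111), with its groups apart, and was called lower with library totals alone as scaling (adjusted p = 0.0418). Hdac7 made up 18.3, 19.3 and 19.3% in the control libraries and 10.8, 11.2 and 14.0% with fenofibrate of the summed class IIa FPKM. Hdac9 summed to 15 counts in each group and was not tested.

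Hdac6, the cytoplasmic deacetylase of tubulin, was the only Hdac gene called higher. It had 21.5, 20.3 and 23.6 normalised CPM in the control libraries and 28.8, 30.7 and 27.6 with fenofibrate, which is 1.33-fold higher (log2 ratio 0.41 ± 0.09 SE, adjusted p = 0.0071). Hdac11, the class IV enzyme that also removes fatty acyl groups, had 26.2, 24 and 30.5 normalised CPM in the control libraries and 17.7, 14.7 and 17.6 with fenofibrate, and was 1.61-fold lower (log2 ratio -0.69 ± 0.12 SE, adjusted p = 0.00331). Hdac10, a polyamine deacetylase, had a log2 ratio of -0.22 ± 0.13 (95% interval -0.54 to 0.09, adjusted p = 0.222).

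Among the sirtuins, Sirt1 and Sirt7 rose, Sirt6 fell and the mitochondrial members were not called. Sirt1, the nuclear NAD+-dependent deacetylase of p53, FOXO factors and PGC-1α, had 23.1, 26.2 and 23.6 normalised CPM in the control libraries and 54.0, 55.2 and 50.8 with fenofibrate. Every fenofibrate library held more than every control library, by 2.19-fold on average (log2 ratio 1.13 ± 0.07 SE, adjusted p = 4.24e-05). Sirt1 lies on GRCm38 chromosome 10, 63319005 to 63381704, on the minus strand. Sirt6, a chromatin deacetylase that limits glycolytic genes and guards telomeres, had 19.7, 20.2 and 18.9 normalised CPM in the control libraries and 13.8, 9.92 and 12.6 with fenofibrate, and was 1.62-fold lower (log2 ratio -0.70 ± 0.13 SE, adjusted p = 0.00406).

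Sirt7, a nucleolar enzyme of ribosomal RNA transcription, had 17.9, 13.7 and 14.4 normalised CPM in the control libraries and 23.7, 18.9 and 19.7 with fenofibrate, and was 1.35-fold higher (log2 ratio 0.44 ± 0.13 SE, adjusted p = 0.0356). The Sirt7 call was lost without control replicate 2 (adjusted p = 0.11), control replicate 3 (0.10), fenofibrate replicate 1 (0.107) or fenofibrate replicate 3 (0.0553). Of its merged exon length, 3.46% is shared with Mafg and a microRNA gene on the same strand, and Mafg itself was 1.54-fold higher, so that reads of Mafg in the Sirt7 counts cannot be told apart. Sirt2, the cytosolic tubulin deacetylase, had the highest FPKM of the family, with 52.1, 39.8 and 49.0 normalised CPM in the control libraries and 49.1, 63.5 and 65.8 with fenofibrate, and missed the threshold (95% interval 0.02 to 0.66, adjusted p = 0.0842). Sirt2 was called higher without fenofibrate replicate 1 (adjusted p = 0.0259). It was also called higher with DESeq2 and without both libraries numbered 1. The mitochondrial genes Sirt3, Sirt4 and Sirt5 had log2 ratios of -0.19, -0.32 and -0.46 (adjusted p = 0.402, 0.0823 and 0.0598). The Sirt4 and Sirt5 groups did not overlap, and both were called lower with library totals alone as scaling (adjusted p = 0.0474 and 0.0386). Sirt4 was also called lower with limma on filtered FPKM at each pseudocount.

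Shares within the family do not depend on how libraries are scaled to each other. Of the summed sirtuin FPKM, Sirt1 held 12.0, 14.6 and 12.7% in the control libraries and 26.5, 26.1 and 23.8% with fenofibrate. Sirt6 moved from 25.5, 27.9 and 25.3% to 16.8, 11.7 and 14.6%. In control Sirt6 stood above Sirt1 in each library, and with fenofibrate Sirt1 stood above Sirt6 in each.

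The TET genes also diverged. Tet3 was the most abundant of the family per length, at 7.51 FPKM in control and 3.79 with fenofibrate, and had 139.9, 141 and 141 normalised CPM in the control libraries and 75.0, 74.9 and 71.6 with fenofibrate. The 3 control values lay within 1.01-fold of each other, and the gene was 1.91-fold lower (log2 ratio -0.93 ± 0.04 SE, adjusted p = 1.32e-05). Tet3 lies on GRCm38 chromosome 6, 83362373 to 83459084, on the minus strand. Tet2, a tumour suppressor of blood cells, had 30.5, 31.7 and 36.4 normalised CPM in the control libraries and 41.3, 42.5 and 44.8 with fenofibrate, and was 1.3-fold higher (log2 ratio 0.38 ± 0.08 SE, adjusted p = 0.00862). That call was lost with limma on FPKM (adjusted p = 0.0653).

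Tet1, the least abundant, had 89, 64 and 72 counts in control and 23, 27 and 54 with fenofibrate. The groups were apart and the gene was 2.16-fold lower (log2 ratio -1.11 ± 0.31 SE, adjusted p = 0.0234), but the call rested on each of 4 libraries. It was lost without control replicate 1 (adjusted p = 0.0747), control replicate 3 (0.0528), fenofibrate replicate 1 (0.0703) or fenofibrate replicate 2 (0.0703). Tet2 held 11.9, 12.3 and 13.9% in the control libraries and 25.7, 26.2 and 27.8% with fenofibrate of the summed TET FPKM, and Tet3 held 85.6, 86.0 and 84.2% in the control libraries and 73.3, 72.6 and 69.9% with fenofibrate. The summed FPKM of the 3 genes went from 8.75 to 8.89 in control to 5.25 to 5.31 with fenofibrate.

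**Figure D4:**
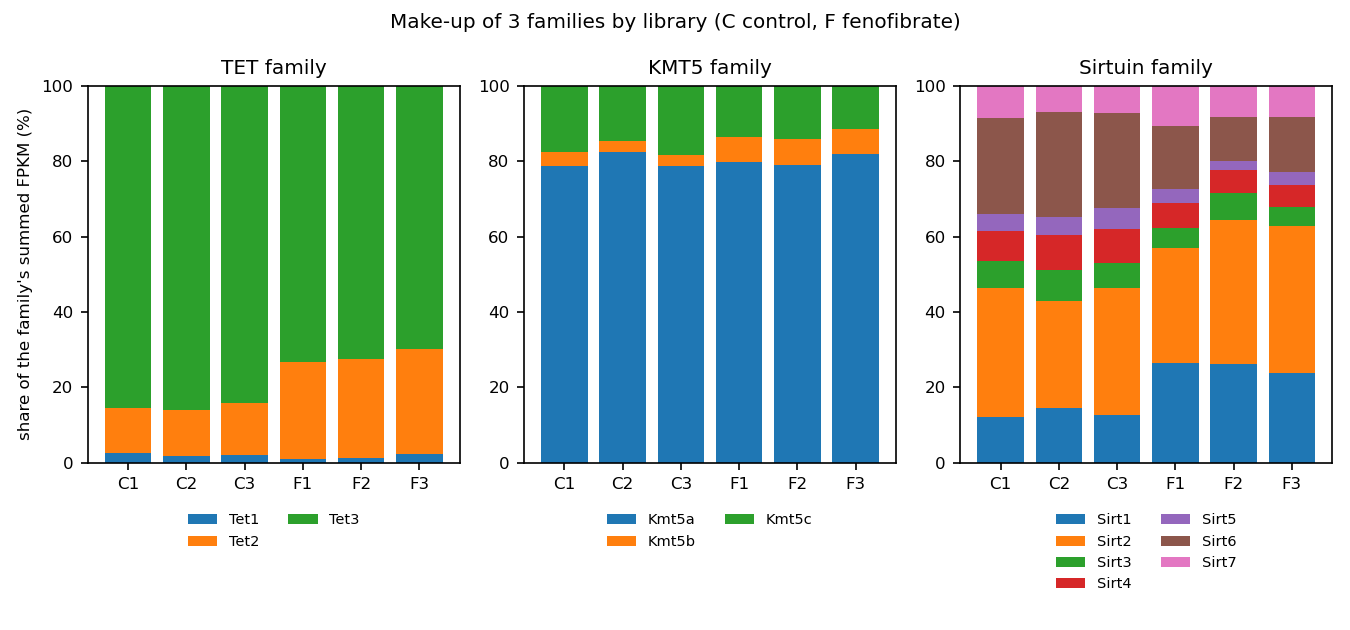
Share of each gene in the summed FPKM (%) of the TET, KMT5 and sirtuin families, 1 bar per library (C1 to C3 control, F1 to F3 fenofibrate). The Tet2 share is 11.9 to 13.9% in control and 25.7 to 27.8% with fenofibrate, the Kmt5b share 2.73 to 3.71% and 6.56 to 6.76%, and the Sirt1 share 12.0 to 14.6% and 23.8 to 26.5%.

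The promoters of Sirt1 and Kdm7a, the members with the largest called rises, and of the diverging pair Tet2 and Tet3 are shown to let their sequences be compared. Each is the 250 bases before the RefSeq start on GRCm38.p6, 5′ to 3′ on the gene's own strand, which is the minus strand for all 4 genes: Sirt1 chr10:63339036-63339285, Kdm7a chr6:39206774-39207023, Tet2 chr3:133544391-133544640 and Tet3 chr6:83441679-83441928. Capitals mark matches on either strand to the E-box CACGTG, the shorter HIF core ACGTG that lies within it, or the GC box GGGCGG, and neighbouring matches can run together. The annotated genes Sirt1, Tet2 and Tet3 reach farther upstream than these windows, so the windows show 1 of their starts.
Sirt1: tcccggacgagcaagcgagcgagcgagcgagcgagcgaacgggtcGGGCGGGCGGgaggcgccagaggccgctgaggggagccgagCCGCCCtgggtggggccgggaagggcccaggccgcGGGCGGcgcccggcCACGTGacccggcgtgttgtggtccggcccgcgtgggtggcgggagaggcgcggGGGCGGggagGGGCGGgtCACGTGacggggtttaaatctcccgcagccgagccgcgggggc
Kdm7a: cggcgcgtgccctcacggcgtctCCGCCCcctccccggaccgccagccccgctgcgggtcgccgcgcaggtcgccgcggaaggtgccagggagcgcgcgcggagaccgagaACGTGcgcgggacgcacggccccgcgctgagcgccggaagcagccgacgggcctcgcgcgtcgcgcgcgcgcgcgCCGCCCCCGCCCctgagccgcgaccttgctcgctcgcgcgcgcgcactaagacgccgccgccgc
Tet2: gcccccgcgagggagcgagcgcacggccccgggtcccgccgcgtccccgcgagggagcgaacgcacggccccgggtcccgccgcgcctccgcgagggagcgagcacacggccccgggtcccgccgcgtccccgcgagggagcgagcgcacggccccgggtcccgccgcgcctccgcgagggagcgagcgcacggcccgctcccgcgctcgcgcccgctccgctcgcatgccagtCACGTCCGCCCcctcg
Tet3: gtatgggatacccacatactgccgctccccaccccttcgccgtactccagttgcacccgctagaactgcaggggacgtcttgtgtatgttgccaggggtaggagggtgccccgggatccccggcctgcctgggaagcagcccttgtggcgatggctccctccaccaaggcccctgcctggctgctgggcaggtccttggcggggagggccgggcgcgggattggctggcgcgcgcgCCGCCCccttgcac

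The Sirt1 window held 2 copies of CACGTG, starting 115 and 43 bases before the start, and 6 GC boxes. Kdm7a had 0 copies of CACGTG, 1 of ACGTG and 3 GC boxes, Tet2 had 1 of ACGTG and 1 GC box, and Tet3 had 1 GC box and none of the shorter sequences. Over all 32851 RefSeq promoter windows of this length, 6.02% held CACGTG, 16.6% held ACGTG and 32.7% held GGGCGG on either strand. Promoters were listed for 56 of the 71 members, in 76 windows, of which 3 held CACGTG, 13 held ACGTG and 44 held GGGCGG. The members' windows had a median GC content of 61.2%, against 52.4% over all windows. The AP-1 sequence TGANTCA was in 6 of the 76 windows and in 6.75% of all, and the CRE TGACGTCA and the E2F sequence TTTCGCGC were in 0 of the 76 and in 1.55% and 0.256% of all. A match describes letters and is not evidence of binding.

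The PRDM factors held the largest fall. Prdm16, which directs brown fat and stem cell programmes, had 184, 177 and 178 normalised CPM in the control libraries and 63.0, 65.2 and 69.0 with fenofibrate. It was 2.73-fold lower with the groups far apart (log2 ratio -1.45 ± 0.05 SE, adjusted p = 3.65e-06), and lies on GRCm38 chromosome 4, 154316125 to 154636873, on the minus strand. Its share of the summed PRDM FPKM went from 36.9, 35.4 and 36.9% in control to 16.0, 17.0 and 17.5% with fenofibrate. It had the highest FPKM of the family in control (11.9), while with fenofibrate Prdm2 (8.36) and Prdm4 (5.49) stood above it (4.2).

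Prdm15, a regulator of pluripotency genes, had 18.7, 19.0 and 17.6 normalised CPM in the control libraries and 10.7, 12.5 and 13.2 with fenofibrate, and was 1.52-fold lower (log2 ratio -0.60 ± 0.10 SE, adjusted p = 0.00301). Prdm11 was 1.29-fold lower (log2 ratio -0.37 ± 0.10 SE, adjusted p = 0.0207), a call lost without control replicate 3 (adjusted p = 0.0636) or fenofibrate replicate 3 (0.0522).

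Prdm2 (RIZ), a tumour suppressor that binds the retinoblastoma protein and methylates H3K9, had 52.5, 54.6 and 49.6 normalised CPM in the control libraries and 68.1, 66.6 and 65.1 with fenofibrate, and was 1.28-fold higher (log2 ratio 0.35 ± 0.06 SE, adjusted p = 0.00268). Prdm10 was also higher (log2 ratio 0.32 ± 0.09 SE, adjusted p = 0.0285), but of the fits leaving out 1 library it kept its call only without control replicate 2. Its adjusted p was 0.0897 and 0.080 without control replicates 1 and 3, and 0.0575, 0.0549 and 0.0766 without fenofibrate replicates 1, 2 and 3. Prdm4 had a log2 ratio of 0.02 ± 0.07 (95% interval -0.14 to 0.17). The other 6 were not tested: Prdm8, Prdm13 and Prdm14 had 0 counts in all libraries, Prdm6 and Prdm12 had 1 count each over the fenofibrate libraries, and Prdm1, the factor that drives plasma cell differentiation, had 1 count in control and 9 with fenofibrate.

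Genes that work with these enzymes, in 8 lists of 125 genes, were called lower more often than higher. The lists were chosen with earlier results of these data known, so they give no independent support for the split among the members. Of 121 tested, 46 fell, 15 rose and 60 were not called, with a median log2 ratio of -0.14. Over all genes 39.1% were called, 19.5% each way. The calls of 4 of 10 PRC2 partners, 4 of 12 other JmjC genes, 6 of 15 acetyltransferases and 7 of 16 cofactor genes lie near the share called either way. In the fits leaving out 1 library the number called higher was 9 to 14, with 9 without control replicate 1 and 9 without fenofibrate replicate 1. With limma on FPKM it was 8.

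Writers and readers of DNA methylation fell in 7 of 11 cases and rose in 1, the thymine DNA glycosylase gene Tdg (1.26-fold higher, adjusted p = 0.0328). The Tdg call was lost without control replicate 1 (adjusted p = 0.0751), control replicate 2 (0.0919), control replicate 3 (0.073) or fenofibrate replicate 1 (0.0583). Uhrf1, which guides DNMT1 to replicating DNA, was 1.73-fold lower (adjusted p = 3.26e-05), and the de novo methyltransferase gene Dnmt3b was 1.68-fold lower (adjusted p = 0.00499). The COMPASS partners of the H3K4 enzymes fell in 7 of 12 cases and rose in 1, Hcfc2 (log2 ratio 0.32, adjusted p = 0.0458). The Hcfc2 call was lost without control replicate 1 (adjusted p = 0.129), control replicate 2 (0.127), fenofibrate replicate 1 (0.0794) or fenofibrate replicate 2 (0.128). Men1, which encodes menin, the partner of KMT2A and KMT2B, had 48.6, 53.1 and 59.1 normalised CPM in the control libraries and 29.8, 29.7 and 31.6 with fenofibrate, and was 1.76-fold lower (adjusted p = 0.000308). Ncoa6, a coactivator in the enhancer complexes, was 1.24-fold lower (adjusted p = 0.0453), a call lost without control replicate 1 (adjusted p = 0.107), control replicate 2 (0.119), fenofibrate replicate 1 (0.109), fenofibrate replicate 2 (0.111) or fenofibrate replicate 3 (0.076). Of 10 PRC2 partners, 3 fell and 1 rose, with Epop 2.38-fold lower (adjusted p = 0.000324), Phf19 1.45-fold lower (adjusted p = 0.00734) and the targeting factor gene Jarid2 1.21-fold higher (adjusted p = 0.014). The Jarid2 call was lost in 5 of the 17 alternative fits. The PRC2 core genes Eed and Suz12, named after their values were seen, were not called (log2 ratios 0.06 and -0.34, adjusted p = 0.634 and 0.272). Suz12 had 253, 258 and 240 normalised CPM in the control libraries and 231, 122 and 242 with fenofibrate, where fenofibrate replicate 2 stood below the rest.

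Of 22 partners in HDAC complexes, 9 fell and 3 rose. The scaffold gene Sin3a was 1.69-fold lower (adjusted p = 0.000592) and Rcor2, a partner of KDM1A, 2.00-fold lower (adjusted p = 0.000987), while Sap30, a SIN3 complex subunit gene, was 1.83-fold higher (adjusted p = 0.000469) and the NuRD gene Gatad2a 1.16-fold higher (adjusted p = 0.00553). Of 23 other histone methyltransferases, 10 fell and 2 rose, among them the H3K9 enzyme genes Suv39h1, 1.77-fold lower (adjusted p = 0.0187), and Ehmt1, 1.55-fold lower (adjusted p = 0.00422). Suv39h1 had 604, 353 and 693 counts with fenofibrate. Its call was lost in 2 of the 17 alternative fits, and that of Gatad2a in 1. Smyd3 and the arginine methyltransferase gene Prmt2 were 1.4-fold and 1.18-fold higher (adjusted p = 0.0165 and 0.0256). The Smyd3 call was lost without control replicate 1 (adjusted p = 0.0581), control replicate 3 (0.0522) or fenofibrate replicate 1 (0.0506), and that of Prmt2 without control replicate 1 (adjusted p = 0.0777), control replicate 3 (0.0721), fenofibrate replicate 1 (0.0741) or fenofibrate replicate 3 (0.0569). Of the 12 tested JmjC genes with other names, 3 were called higher and 1 lower. Hr, a JmjC corepressor of nuclear receptors, was 15.4-fold higher (adjusted p = 2.19e-07), Jmjd1c, a relative of Kdm3a, 1.90-fold higher (adjusted p = 4.35e-05) and the demethylase gene Phf2 1.53-fold lower (adjusted p = 0.000157).

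Of 15 histone acetyltransferases, which oppose the deacetylases, 3 were called higher and 3 lower, a share near that of all genes each way. Kat2a (GCN5) was 1.58-fold lower (adjusted p = 4.88e-05) and Kat14 1.84-fold lower (adjusted p = 4.23e-05), while Kat5 (TIP60) was 1.35-fold higher (adjusted p = 0.00605) and Ep300 1.24-fold higher (adjusted p = 0.00996). The Kat5 call was lost in 1 and the Ep300 call in 2 of the 17 alternative fits. Of 16 genes that supply the cofactors of all these enzymes, 6 fell and 1 rose. Acly, which makes acetyl-CoA from citrate, was 1.26-fold lower (adjusted p = 0.000249), and Acss2, which makes acetyl-CoA from acetate, 1.65-fold higher (adjusted p = 0.00163).

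**Figure D5:**
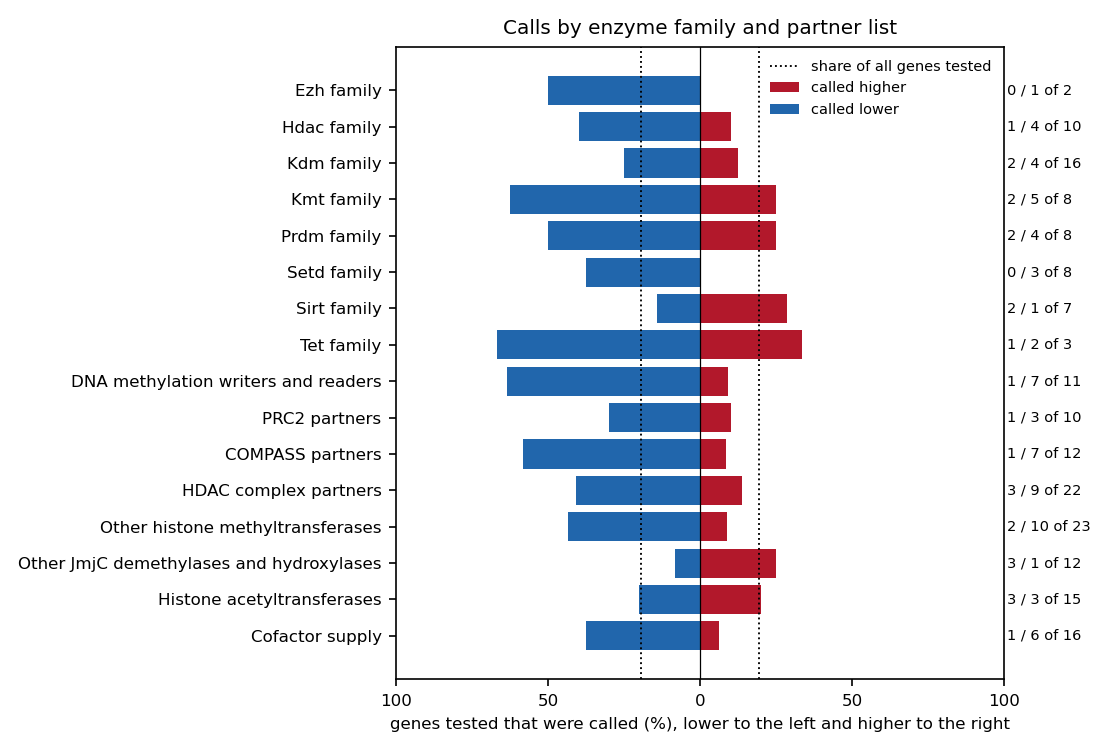
Percentage of tested genes called lower (to the left) and higher (to the right) in each enzyme family and partner list, with dotted lines at the share of all genes tested (19.5% each way) and the numbers higher, lower and tested at the right. The left bar passes the dotted line in 7 of the 8 families, all but the sirtuins.

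Overlapping annotation limits some of these values, since no strand setting is given in the sources used here. Of the 34 called members, 18 share exon bases with another annotated gene, and for 7 of them the shared part exceeds 5% of the merged exon length. For Setd1a it was 52.3%, shared with Gm49388, which had 66 counts in control replicate 3 and 0 in the other libraries, and with 9430064I24Rik, which had 0 throughout. Kdm3b shared 24.6%, Hdac4 22.4%, Hdac11 17.9% and Kmt5b 6.28% with genes on the other strand at 0 counts. Kmt2e shared 9.31% with Srpk2 on the other strand. Srpk2 had a log2 ratio of 0.16 (adjusted p = 0.0584), the same direction as Kmt2e, so reads of Srpk2 in the Kmt2e counts cannot be told apart. Kdm2b shared 8.74%, mostly with Rnf34, whose counts of 531, 523 and 525 in control and 785, 716 and 784 with fenofibrate went opposite to those of Kdm2b.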

How the data were processed

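RNA-seq libraries of B16F10 cells, 3 control and 3 given fenofibrate at 50 µM, were grouped by their labels. One table held 54838 genes with, per the file headers, deposited raw counts and deposited FPKM values for each library. The FPKM that the authors deposited equalled count over 1 length per gene and the library's summed counts for 100% of 12682 genes with at least 10 counts in every library (tolerance 0.1%). HISAT2 2.0.4, StringTie 1.3.0 and GRCm39 are named in the submitters' processing notes without roles. The counting tool, strand setting and filters are not given in the sources used here. Of the gene IDs 99.9% were in GENCODE M21 and 98.7% had its start and end, so coordinates are on GRCm38.

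Counts of all genes passing filterByExpr (13629) were tested with edgeR 4.0.16 (R 4.3.3; TMM scaling, quasi-likelihood fit, group only), with Benjamini-Hochberg adjustment over those genes and a threshold of 0.05. Every adjusted p and log2 ratio (± SE, with 95% intervals) comes from that fit unless another is named. Genes not overlapping between groups had every library of one group above every library of the other. Levels are CPM over TMM-scaled totals, and SEs were taken from the fold change and its F statistic. Alternatives were DESeq2 1.42.0, other scalings, no filter, a replicate block, leaving out each library, and limma 3.58.1 on log2(FPKM + 0.5), with 0.1 and 1 as other pseudocounts and a minimum mean FPKM of 0.5 or none. Leaving out both libraries numbered 1 was added after seeing the Kdm2a counts. The fit was checked on simulated counts with 50 genes changed at each of 4 folds, far fewer than the 5326 genes called in the data. Of the changed genes tested, 2 of 49 were called at 1.25-fold, 29 of 49 at 1.5-fold, 37 of 48 at 2-fold and 48 of 49 at 4-fold. Of all 125 calls 9 were false, so small changes were mostly missed there.

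The members follow from their names, and the partner and marker lists, of which 1 partner gene (Ezhip) had no match, were chosen with earlier results of these data known. Named genes are the members called with a change of 1.5-fold or more, the member of highest mean FPKM in each family, Ezh2, Kdm1a, Hdac1, Hdac2, Sirt1, Tet2 and Kmt2a, and up to 2 called genes each way per partner list. The other members are named to account for the 71, except that some values are not reported here. Promoters are RefSeq windows on GRCm38.p6, searched on both strands with Python 3.11.15.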

Additional observations from a re-analysis of the deposited data

How the results depend on the processing

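All 34 called genes kept their direction under every alternative run, and 20 kept their call under each, among them Hdac4, Hdac7, Hdac11, Kdm1a, Kdm2b, Kdm3b, Kdm7a, Kmt2b, Kmt2d, Kmt5a, Kmt5b, Kmt5c, Prdm2, Prdm15, Prdm16, Setd1b, Sirt1, Sirt6 and Tet3. With library totals as the only scaling 6 of the 71 genes were called higher and 28 lower, and with limma 5 were called higher at each pseudocount and without the filter on FPKM. Leaving out 1 library gave 7 to 9 called higher and 20 to 23 lower. Of the partner genes, 9 to 14 were called higher when 1 library was left out, 8 with limma at each pseudocount and 7 with limma without the filter. Without both libraries numbered 1, which leaves 2 in each group, 3168 genes were called in place of 5326, 5 partner genes were called higher, and Ezh2, Hdac6, Setd1a and Tet2 lost their calls beside genes whose calls were also lost without 1 library. The cause of these differences, the smaller number of libraries included, was not tested. DESeq2 gave 11 higher and 24 lower. With the replicate number as a block 4540 genes were called, 9 of the 71 higher and 22 lower, with Kdm5a, Prdm11 and Setd5 lost. Deviations of same-numbered libraries correlated by -0.02 to 0.02 over the 13629 genes tested, and those of differently numbered libraries by -0.03 to 0.02. The labels give no pairing, and this correlation over all genes cannot decide whether same-numbered libraries share a batch that acts on some genes. The replicate block changed no other call among the 71.

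Of the 28 tested genes not called, 12 changed sign somewhere. None was called at these values. Their log2 ratios over the 6 fits leaving out 1 library were -0.046 to 0.032 for Ezh1, -0.047 to 0.20 for Hdac3, -0.49 to 0.39 for Kdm2a, -0.029 to 0.14 for Kdm5b, -0.074 to 0.032 for Kdm5c, -0.12 to 0.12 for Kdm8, -0.021 to 0.063 for Prdm4, -0.0062 to 0.29 for Prdm9, -0.0069 to 0.077 for Setd2, -0.18 to 0.057 for Setd3, -0.24 to 0.028 for Setd4 and -0.31 to 0.052 for Setd6. With library totals only they were -0.0082 for Hdac3, -0.019 for Kdm5b, -0.037 for Prdm4 and -0.020 for Setd2, and with upper-quartile factors -0.0047 for Prdm4. With limma at pseudocounts of 0.5, 0.1 and 1 they were -0.019, -0.021 and -0.017 for Hdac3, -0.011, -0.013 and -0.0096 for Kdm5b, -0.034, -0.036 and -0.031 for Prdm4 and -0.019, -0.020 and -0.017 for Setd2, and without the filter the values at 0.5 were the same. Without both libraries numbered 1 they were -0.10 for Hdac3, 0.051 for Kdm8, -0.0065 for Prdm9, -0.023 for Setd2, 0.13 for Setd3 and 0.10 for Setd4. With 3 libraries a group, a difference that missed the threshold is not shown to be absent, and genes with few counts were not tested.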
